A study of Gallus gallus with 2 samples.

Results

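Ephrins, semaphorins, Slits, netrins and their receptors were compared between chick heart forming regions (HFR) and the hind piece of the primitive streak that the labels call PPP, with 1 array for each tissue. The members were all probe sets whose only annotated symbol began with EPHA, EPHB, EFNA, EFNB, SEMA, PLXN, ROBO, SLIT (SLITRK left out) or UNC5, or was NTN1, NTN3, NTN4, DCC or NEO1. The rule took in 137 of 38382 probe sets, which stood for 54 of 13009 genes. UNC50, a Golgi membrane protein that is no netrin receptor, came in by its prefix and was left out of the classes, so that 53 guidance genes with 135 probe sets remained. DCC was not analysed here.

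The HFR embryos and the PPP embryos had the same treatment. Eggs of both were kept at 37.5 °C for some 12 h, and the embryos received at HH3, by electroporation, an EGFP plasmid driven by 2.5 kb of Cerberus upstream sequence. HFR pieces were cut out where EGFP, a green fluorescent protein, was seen, and PPP pieces by position, at HH4 to HH4+. How many embryos an array pooled is not stated, nor what share of the cells took up the plasmid. Each piece may have held other cells as well.

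The value of a probe set is a model-based expression index (MBEI), an intensity on a linear scale, with a detection call and a model standard error. Errors after ± are these standard errors, which describe the spread among probes within 1 array. With 1 array per tissue no difference had a replicate check and no test was possible, so precision is limited by the number of arrays. Where a gene had several probe sets, the brightest by mean log2 MBEI stood for it. It passed the level filter if the brighter of its values was called present and reached 70.8 MBEI, the median of such brighter values over all probe sets, and a difference was counted at 2-fold. Log2 differences are HFR minus PPP, as the arrays are labelled. Fewer cells of a type and less RNA per cell cannot be told apart in such bulk pieces.

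Guidance cues are ligands that steer moving cells and growing axons by contact or diffusion. Ephrins are bound to the cell surface and signal to Eph receptor tyrosine kinases on the neighbouring cell, with ephrin-A mostly paired with EphA and ephrin-B with EphB receptors, and they keep cell groups apart at tissue boundaries. Semaphorins act through plexins, the secreted class with neuropilins as co-receptors, while Slits act through Robo receptors and netrins through DCC, neogenin and UNC5 receptors. In the gastrula, mesoderm cells leave the streak and migrate before the heart fields form, and many of these molecules are known to act on moving mesoderm or endothelium.

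CER1 and TBXT, the genes chosen to check the labels, lay opposite to them. CER1, a secreted Nodal and BMP antagonist whose regulatory sequence drove the EGFP, read 108.3 ± 19.2 MBEI (call marginal) on the array labelled HFR, against 420.2 ± 193.3 on the array labelled PPP. With so large an error on the array labelled PPP, its log2 difference of -1.96 had a standard error of 0.71. TBXT, the T-box factor of the streak, read 7129 ± 80.7 on the array labelled HFR and 3691 ± 147.1 MBEI on the array labelled PPP. That difference was 1.93-fold, under the 2-fold threshold. Of the 8 streak genes that passed, TBXT included, 5 were higher on the array labelled HFR and 3 on the array labelled PPP, with a median log2 difference of 0.59. WNT3A, a streak Wnt ligand, read 1200 ± 33 on the array labelled HFR and 189.8 ± 7.7 MBEI on the array labelled PPP. WNT5B and MSGN1 lay the same way, with log2 differences of 1.92 and 0.82. FGF8, a streak growth factor, ran as the labels say, at 62.2 ± 5.8 (absent) and 282.1 ± 16.5 MBEI, higher by at least 4.54-fold on the array labelled PPP, and WNT8A had a log2 difference of -0.52. MESP1, a factor of early mesoderm, had a log2 difference of 1.38. Whether the labels of the 2 arrays were exchanged was not tested. Each direction below is therefore given between arrays named by their labels.

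Other lists of markers also differed between the arrays, and their part in the guidance results was not tested. The sums below are over all list genes on the array, also those not called present, and bright genes weigh most in them. TBXT gave 7129 and 3691 MBEI of the streak sums on the arrays labelled HFR and PPP. GATA5 gave 2804 and 4308 MBEI of the heart field sums. Of 12 extraembryonic epithelium genes 8 passed, and all 8 were 2-fold or more higher on the array labelled HFR. Of these, APOA1 and RBP4A alone met the filter's conditions on both arrays. The others passed through the array labelled HFR alone, so that the filter fixed their direction. The lists were chosen with earlier results of these data known. This list summed to 14802 MBEI on the array labelled HFR and 804.1 on the array labelled PPP. APOB, RBP4 and AFP were not called present on either. Primitive streak genes (8 of 10 passed) had 2 at 2-fold higher on the array labelled HFR and 1 on the array labelled PPP, with sums of 13220 and 7394 MBEI. The other lists had their 2-fold members mostly on the array labelled PPP. Heart field genes (7 of 11 passed, sums of 6600.3 on HFR and 7434 on PPP) had 1 on the array labelled HFR and 3 on the array labelled PPP. The 1 was MESP1, at 2301 on the array labelled HFR and 883.7 MBEI on the array labelled PPP. The other 6 heart field genes that passed were all higher on the array labelled PPP. Of these, GATA5 and GATA6 alone met the filter's conditions on both arrays. NKX2-5, ISL1, HAND2 and MYOCD passed through the array labelled PPP alone, so that the filter fixed their direction. Neural plate genes (5 of 8 passed, sums of 2041 and 3904) had 1 and 2. Anterior endoderm genes (9 of 9 passed, sums of 7128 and 12526) had 0 and 5. Blood and endothelial genes (6 of 12 passed, sums of 2295.5 and 4622) had 0 and 4. Those 4, CDH5, TAL1, FLT1 and SOX7, passed through the array labelled PPP alone, as CER1 did among the 5 of anterior endoderm. The heart field factors HAND1, TBX5 and MEF2C, the neural markers SOX2 and SIX3, and the endothelial markers LMO2, TEK, TIE1, ERG and CLDN5 were not called present on either array.

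At least 1 probe set was called present for 22 of 26 receptor genes and 17 of 27 ligand genes. The matching share of all genes was not computed. Of receptor probe sets 43.9% were present on the array labelled HFR and 47% on the array labelled PPP, and of ligand probe sets 36.2% and 34.8%. Over all 137 member probe sets 40.9% were present on the array labelled HFR and 41.6% on the array labelled PPP, close to the 38.4% and 42.2% of all probe sets. All 7 plexins, all 4 EphB receptors and all 4 netrin receptors on the array passed the level filter, whereas 0 of 3 netrins and 0 of 3 Robo receptors did. Of the 53 guidance genes 31 passed, a share close to that of all genes (7389 of 13009). A further 8 were called present under the filter and 14 were not called present.

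**Figure D1:**
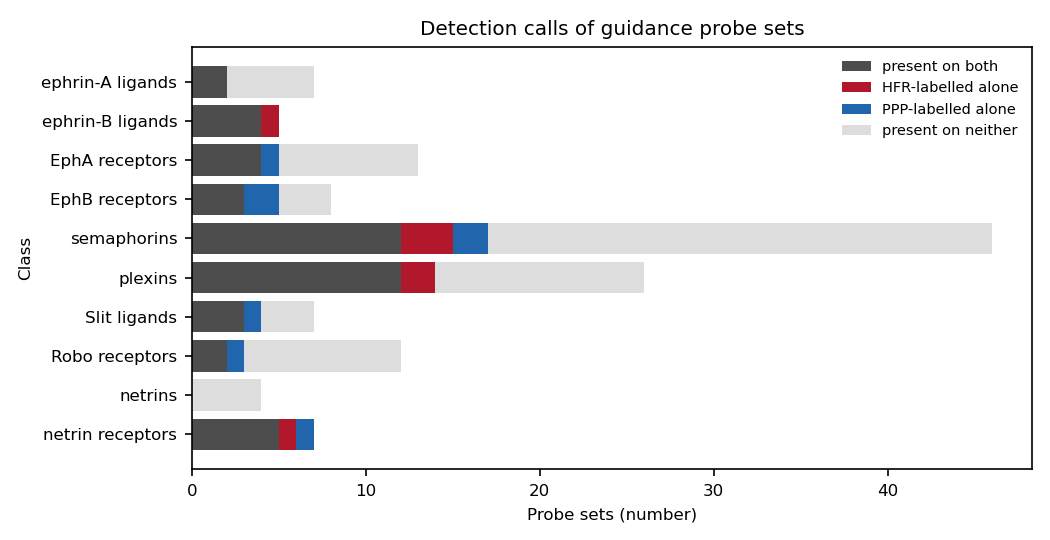
Number of probe sets of each guidance class by detection call, with those present on both arrays, on the array labelled HFR alone, on the array labelled PPP alone and on neither. Of 46 semaphorin probe sets 29 were present on neither array, and all 4 netrin probe sets were present on neither.

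Of the 31 genes, 6 were 2-fold or more higher on the array labelled HFR (3.86% of all 7389 passing genes were) and 2 on the array labelled PPP (4.25% of all). Those on the array labelled HFR were the receptors EPHA5, EPHA1, PLXNC1 and PLXNA2 and the ligands SEMA3A and SEMA6D. EPHA7 and PLXNA4, both receptors, were the 2 on the array labelled PPP. With the poly-A spike-ins set equal between the arrays, which moved the median log2 difference of all passing genes to 1.47, 26 guidance genes passed, of which 23 were 2-fold toward HFR and 0 toward PPP. On that scale 85.8% of the 7064 genes that passed were at 2-fold, 6048 of them toward HFR and 15 toward PPP. Directions below hold on the deposited scale, relative to the bulk of genes. Together the 8 genes make 25.8% of the guidance genes that passed, beside 8.11% of all passing genes. Of the 44 passing guidance probe sets 9 (20.5%) reached 2-fold, 6 toward HFR and 3 toward PPP, beside 8.94% of all passing probe sets (3.73% and 5.22% in these directions). A filter on level lets in genes through the array where they are high. Without it 8 of 53 guidance genes (15.1%) reached 2-fold, beside 5.17% of all genes.

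By role, 6 of the 19 receptors (31.6%) and 2 of the 12 ligands (16.7%) that passed were at 2-fold, beside 8.11% of all passing genes. Of the 31 guidance genes that passed, 22 (71%) differed by more than 2 model standard errors, beside 69.6% of all passing genes. All 8 genes at 2-fold did, which the 2-fold threshold nearly ensures. Of all passing genes at 2-fold, 283 of 285 toward HFR and 314 of 314 toward PPP did so too.

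**Figure D2:**
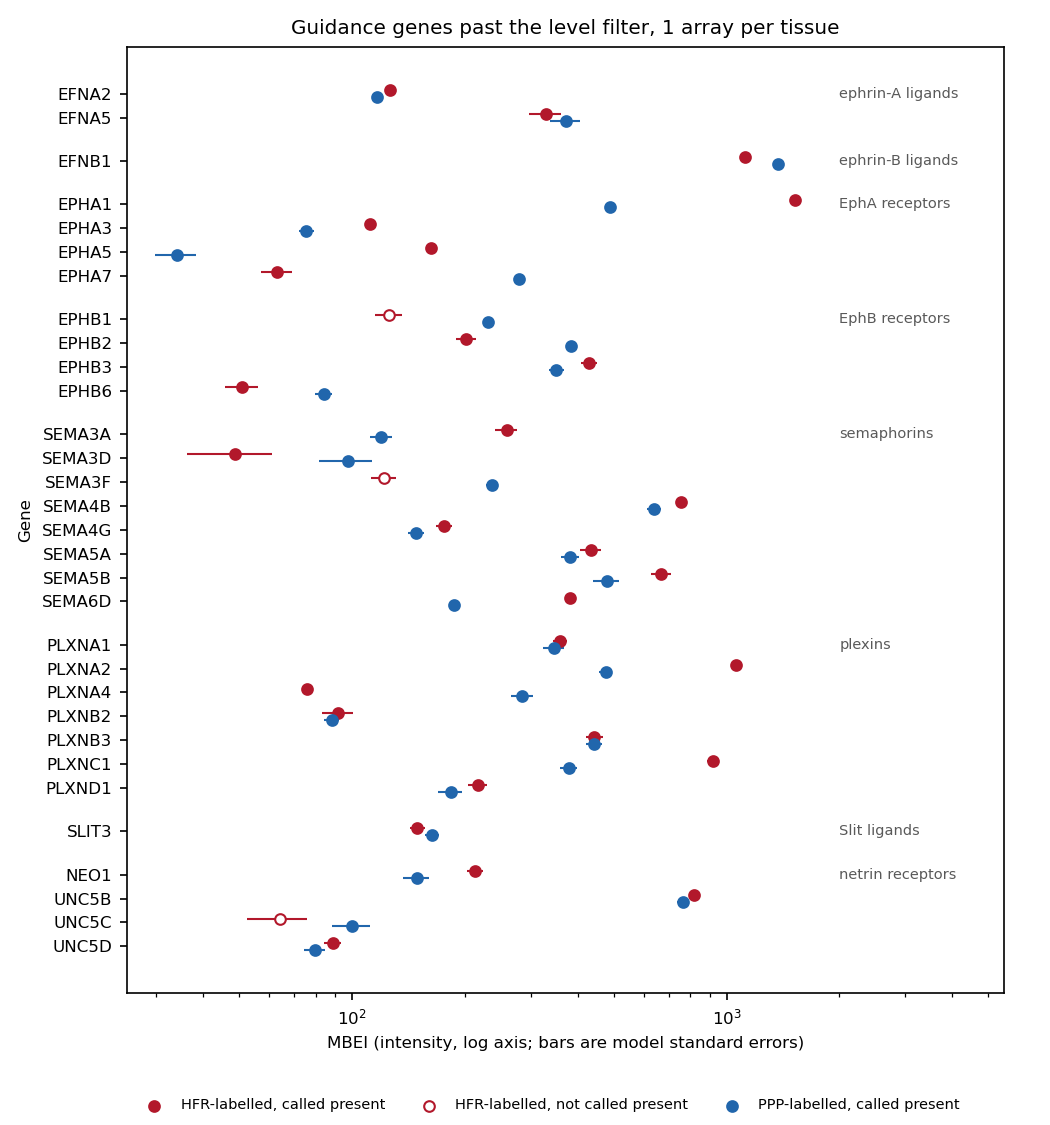
MBEI on a log axis with model standard errors for the 31 guidance genes past the level filter, grouped by class, with the array labelled HFR in red and the array labelled PPP in blue and open circles for values not called present. EPHA1, EPHA5, SEMA3A, SEMA6D, PLXNA2 and PLXNC1 lie to the right on the array labelled HFR, and EPHA7 and PLXNA4 on the array labelled PPP.

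Ephrins differed little between the arrays. EFNA2, a ligand of EphA receptors held to the membrane by a lipid anchor, read 126.1 ± 3.8 MBEI on the array labelled HFR and 116.3 ± 2.8 on the array labelled PPP. EFNA5, of the same kind, read 329.0 ± 32.8 and 372.4 ± 33.8 MBEI on them, a log2 difference of -0.18 with a standard error of 0.19. The other 4 probe sets of EFNA5 were absent on both arrays. EFNB1, a transmembrane ligand of EphB receptors, read 1123 ± 34.1 on the array labelled HFR and 1372 ± 26.2 MBEI on the array labelled PPP, a log2 difference of -0.29. Its other passing probe sets gave log2 differences of -0.51, -0.52 and 0.21, so that 3 of 4 lay below 0. EFNB2, the ephrin of arterial endothelium, was present but dim on both arrays, at 38.9 ± 1.9 on the array labelled HFR and 46.9 ± 2.0 MBEI on the array labelled PPP, under the filter.

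EphA receptors held the largest guidance differences in both directions. EPHA5 read 162.2 ± 4.7 MBEI on the array labelled HFR and 34.0 ± 4.3 on the array labelled PPP, 4.77-fold higher, with a log2 difference of 2.25 and a standard error of 0.19. That placed it at rank 51 of the 7389 passing genes counted from the HFR end. Both values were called present, but EPHA5 reached the filter's 70.8 MBEI on the array labelled HFR alone. Its rank is therefore among genes that could pass through the array where they are high. The other EPHA5 probe set (55.7 ± 2.1 and 38.6 ± 2.0 MBEI) was absent on both arrays.

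EPHA1, the first Eph receptor to be cloned, read 1526 ± 13.0 on the array labelled HFR and 488.8 ± 10.4 MBEI on the array labelled PPP, 3.12-fold higher and at rank 112 from the HFR end. Its 1 probe set has the suffix a, which marks probes shared by transcripts of a gene. EPHA7 lay the other way, at 63.0 ± 6.0 MBEI on the array labelled HFR and 279.5 ± 7.5 on the array labelled PPP, a log2 difference of -2.15 with a standard error of 0.14. It was 4.44-fold higher on the array labelled PPP and had rank 34 counted from that end. EPHA7 also rested on 1 probe set, which was called present on both arrays but reached 70.8 MBEI on the array labelled PPP alone.

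EPHA3 read 111.5 ± 2.4 on the array labelled HFR and 75.5 ± 3.5 MBEI on the array labelled PPP, under 2-fold with a log2 difference of 0.56, and its other probe set was absent on both. EPHA4, a receptor that binds ephrins of both subclasses, read 237.9 ± 14.3 and 144.5 ± 11.8 MBEI but was called absent on both arrays. EPHA2 and EPHA10 were absent on both arrays as well. EPHA6 had 3 of 4 probe sets absent on both and 1 present on the array labelled PPP alone, at 16.5 ± 1.9 (absent) on the array labelled HFR and 38.8 ± 2.8 MBEI on the array labelled PPP, which is under the filter. The EphA receptors therefore did not lie on one side. Of the 4 that passed, 2 were 2-fold higher on the array labelled HFR and 1 on the array labelled PPP. Of all passing genes 3.86% and 4.25% were, in these directions.

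None of the EphB receptors reached 2-fold (0 of 4). With 8.11% of all passing genes at 2-fold, 0 of 4 does not set the class apart. EPHB2 read 201.7 ± 12.4 MBEI on the array labelled HFR and 383.5 ± 8.6 on the array labelled PPP, a log2 difference of -0.93. For EPHB1 the values were 125.5 ± 10.2 (absent) and 230.8 ± 5.1 MBEI, higher by at least 1.84-fold on the array labelled PPP. Its other probe set was under the filter, at 33.5 ± 10.6 (absent) and 63.0 ± 6.0 MBEI. That one gave a log2 difference of -0.91 with a standard error of 0.48. EPHB6, which lacks kinase activity in mammals, read 50.9 ± 5.1 on the array labelled HFR and 83.9 ± 4.3 MBEI on the array labelled PPP. EPHB3 lay above 0, at 428.6 ± 21.1 and 351.3 ± 16.6 MBEI. EPHB1 and EPHB6 passed the filter through the array labelled PPP alone, and the fold of EPHB1, absent on the array labelled HFR, is a bound. The direction of EPHB2 rests on the deposited scale, since its log2 difference was 0.56 with the poly-A spike-ins set equal.

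Among semaphorins, 8 of 17 genes passed and 2 of these reached 2-fold (8.11% of all passing genes did), both higher on the array labelled HFR. SEMA3A, the secreted ligand first purified from chick brain for collapsing growth cones, read 258.4 ± 17.7 on the array labelled HFR and 119.7 ± 8.0 MBEI on the array labelled PPP, 2.16-fold higher. SEMA6D is a transmembrane ligand that acts through PLXNA1 in the chick heart. It read 382.8 ± 11.1 on the array labelled HFR and 187.4 ± 5.0 MBEI on the array labelled PPP, 2.04-fold higher, while its other passing probe set read 209.2 ± 5.3 and 142.6 ± 5.3 MBEI, a log2 difference of 0.55.

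The other secreted semaphorins that passed lay below 0, close to 2-fold. SEMA3D read 48.8 ± 12.5 on the array labelled HFR and 97.3 ± 15.7 MBEI on the array labelled PPP. This was 1.99-fold higher on the array labelled PPP, with a standard error of 0.44 for the log2 difference. A second SEMA3D probe set, called present on both arrays but under the filter, read 40.2 ± 9.4 and 50 ± 8.6 MBEI. That one was 1.24-fold higher on the array labelled PPP, and its log2 value of -0.31 lay within the model error of 0.42. SEMA3F, a ligand that binds mainly the co-receptor neuropilin 2, read 121.6 ± 9.4 (absent) and 236.6 ± 8.8 MBEI, higher by at least 1.95-fold on the array labelled PPP. SEMA3C was present on the array labelled PPP alone and dim, at 60.0 ± 5.0 (marginal) on the array labelled HFR and 55.9 ± 4.3 MBEI on the array labelled PPP. SEMA3B, SEMA3DL, SEMA3E and SEMA3G were not called present. SEMA3G was not called present with any of its 5 probe sets although these read 147.1 to 244.8 MBEI on the array labelled HFR and 100.3 to 189.1 on the array labelled PPP.

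The membrane-bound semaphorins other than SEMA6D differed by less. SEMA5B read 668.3 ± 39.9 on the array labelled HFR and 478.0 ± 37.1 MBEI on the array labelled PPP, and its 3 passing probe sets had log2 differences of 0.06 to 0.48. SEMA5A, which has thrombospondin repeats like SEMA5B, read 434.1 ± 27.4 and 382.6 ± 20.9 MBEI. SEMA4B and SEMA4G, ligands of the transmembrane class 4, had log2 differences of 0.24 and 0.25. SEMA6A and SEMA7A were present under the filter, and SEMA4D and SEMA6B were not called present.

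The 7 plexins, like the EphA receptors, held 2-fold differences on both sides. PLXNC1, the receptor of SEMA7A, read 920.4 ± 34.9 on the array labelled HFR and 379.2 ± 19.4 MBEI on the array labelled PPP, 2.43-fold higher. A second PLXNC1 probe set called present on both arrays read 58.9 ± 4.1 and 57.1 ± 5.5 MBEI, under the filter and with a log2 difference of 0.04. PLXNA2, a receptor of class 6 and class 3 semaphorins, read 1060 ± 9.7 and 475.5 ± 19.1 MBEI, 2.23-fold higher on the array labelled HFR, and its other passing probe sets had log2 differences of 0.92 and 0.17.

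PLXNA4, which pairs with neuropilin 1 as a SEMA3A receptor, read 75.7 ± 1.1 MBEI on the array labelled HFR and 284.2 ± 19.2 on the array labelled PPP, 3.75-fold higher there and at rank 50 from the PPP end. A second probe set read 85.6 ± 4.2 and 238.5 ± 2.5 MBEI, a log2 difference of -1.48. The third that passed read 78.2 ± 3.0 and 81.7 ± 3.8 MBEI, a log2 difference of -0.06, so that the PLXNA4 difference was seen with 2 of 3 passing probe sets.

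The other plexins were within 1.5-fold. PLXNA1 read 359.9 ± 15 on the array labelled HFR and 345.0 ± 22.0 MBEI on the array labelled PPP, with its other 7 probe sets absent on both. PLXNB2 had a log2 difference of 0.06, and PLXNB3 read 443.6 MBEI on each array, with errors of 22.8 and 21.3. PLXND1, the SEMA3E receptor of endothelium, read 216.4 ± 12.7 and 183.2 ± 13.7 MBEI, a log2 difference of 0.24 with a standard error of 0.14.

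**Figure D3:**
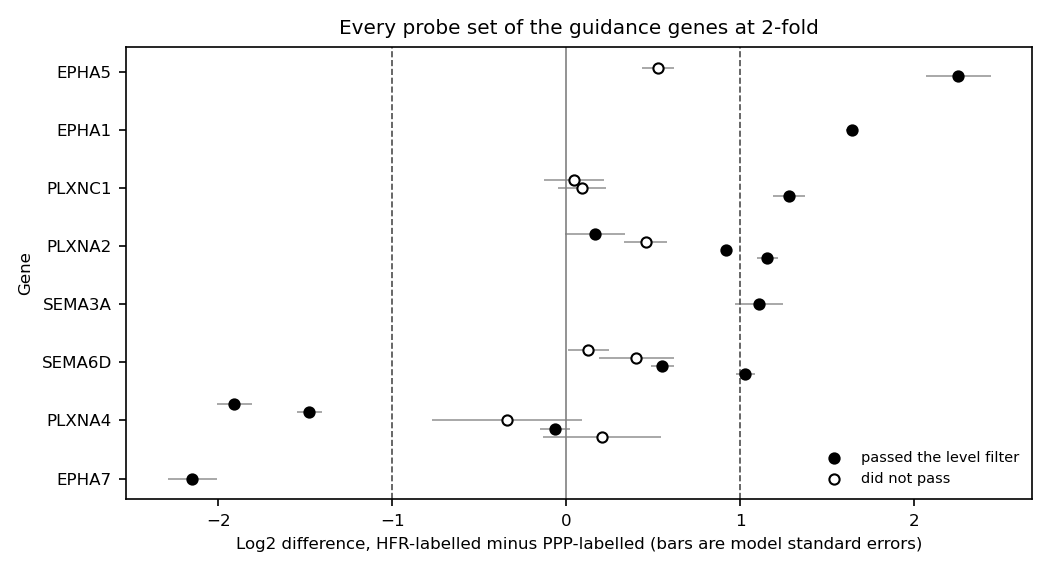
Log2 difference (HFR minus PPP, as labelled) with its model standard error for every probe set of the 8 guidance genes at 2-fold, filled where the probe set passed the level filter and open where it did not. EPHA1, EPHA7 and SEMA3A have 1 probe set each, and the PLXNA4 probe sets spread over 1.85 log2 units among those that passed.

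Of the Slit and Robo genes SLIT3 alone passed the level filter. SLIT3 read 149.3 ± 6.9 on the array labelled HFR and 163.6 ± 7.0 MBEI on the array labelled PPP, and its 2 passing probe sets had log2 differences of -0.13 and -0.26. SLIT2 read 38.5 ± 5.6 (absent) and 43.5 ± 2.9 MBEI, under the filter. SLIT1 had 272.3 ± 10.6 MBEI with a marginal call on the array labelled HFR and 201.2 ± 4.3, absent, on the array labelled PPP. ROBO1, with 6 probe sets, and ROBO2, with 5, had present calls only on dim probe sets, and ROBO4, the endothelial member, was absent at 56.9 ± 3.3 and 62.6 ± 4.5 MBEI.

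Netrins were not detected, while their receptors were. The 4 probe sets of NTN1, NTN3 and NTN4 were absent on both arrays and lay between 22.1 and 66.3 MBEI. UNC5B, the repulsive netrin receptor also known from endothelium, read 819.2 ± 20.8 on the array labelled HFR and 765.3 ± 29.2 MBEI on the array labelled PPP, and its second probe set had a log2 difference of -0.15. NEO1 encodes neogenin, which binds netrins and repulsive guidance molecules. It read 213.0 ± 10.1 on the array labelled HFR and 148.7 ± 11.8 MBEI on the array labelled PPP, a log2 difference of 0.52, but -0.21 with its second probe set. UNC5C read 64.2 ± 11.7 (absent) and 100 ± 11.6 MBEI, higher by at least 1.56-fold on the array labelled PPP. The standard error of that log2 difference, -0.64, was 0.31. A second UNC5C probe set, under the filter, read 26.6 ± 6.5 on the array labelled HFR and 29.4 ± 4.5 MBEI (absent) on the array labelled PPP. UNC5D had a log2 difference of 0.16.

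Between 1.5-fold and 2-fold lay 6 guidance genes, of which EPHB2 alone met the filter's conditions on both arrays. The others passed through the array labelled PPP alone. EPHB1, EPHB2, EPHB6, SEMA3D, SEMA3F and UNC5C were all higher on the array labelled PPP (8.78% of all passing genes lay in that band and direction), and 0 were higher on the array labelled HFR (5.59% of all). At 1.5-fold, 14 of the 31 guidance genes differed (22.5% of all passing genes did), 6 toward HFR (9.45% of all) and 8 toward PPP (13% of all). The probe sets that stand for EPHB1, SEMA3F and UNC5C were absent on the array labelled HFR. Those of EPHB6 (50.9 MBEI on HFR and 83.9 on PPP) and SEMA3D (48.8 and 97.3) were present on both arrays. They reached 70.8 MBEI on the array labelled PPP alone.

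**Figure D4:**
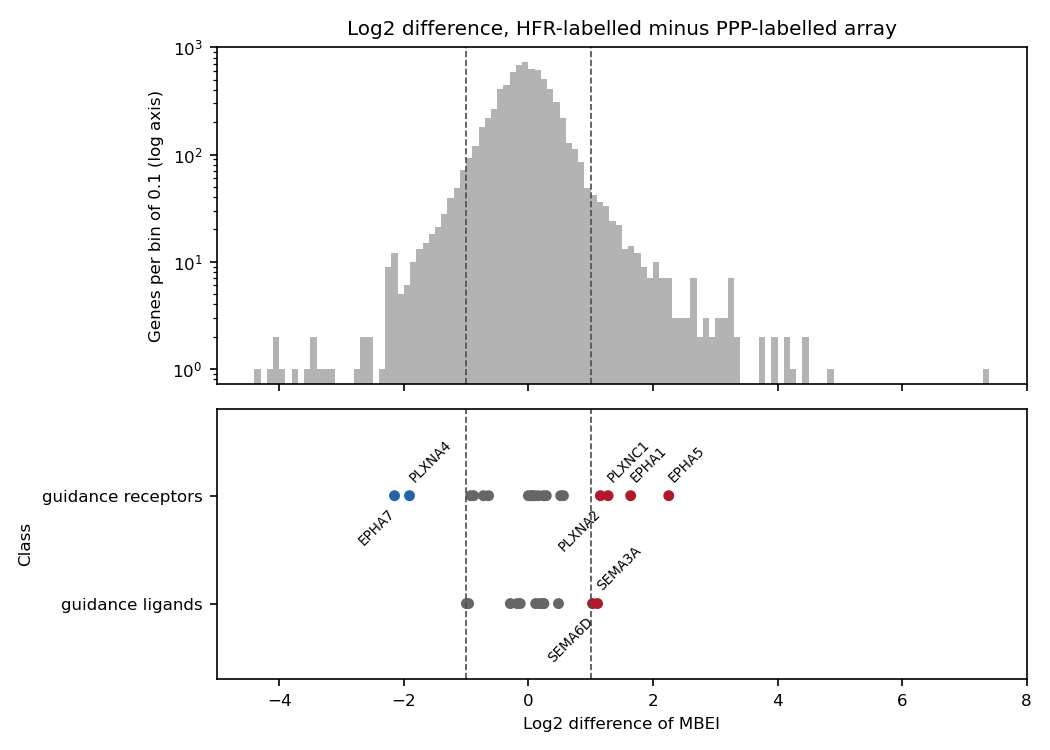
Upper panel, number of genes (log axis) by log2 difference (HFR minus PPP, as labelled) over all 7389 passing genes. Lower panel, the 12 ligands and 19 receptors among them as points, with 2-fold marked by dashed lines. The named points beyond the lines are 4 receptors and 2 ligands on the HFR side and 2 receptors on the PPP side.

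Probe sets of a gene could differ by more than their model errors, though not for every gene. Of 9 member genes with several passing probe sets (UNC50 included), 5 had all of them in 1 direction and 4 did not, namely EFNB1, NEO1, UNC50 and UNC5B. The median spread between the lowest and the highest probe set of a gene was 0.48 log2 units, from 0.13 for SLIT3 to 1.85 for PLXNA4. The median model standard error of a log2 difference was 0.11 over the 32 passing members, each by the probe set that stands for it. A range and a standard error are unlike measures, so the 2 values give scale alone. Of the 8 genes at 2-fold, 5 had a single passing probe set. UNC50 itself read 1401 ± 58.6 on the array labelled HFR and 1183 ± 28.8 MBEI on the array labelled PPP.

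Co-receptors, further ligands and cytoplasmic effectors of the same pathways were taken from a list of 55 genes, of which 50 were on the array and 34 passed. The list's median log2 difference was -0.06, near that of all passing genes, and 4 of the 34 (11.8%) reached 2-fold, beside 8.11% of all. NRP1, the neuropilin that with A plexins forms the SEMA3A receptor and also binds VEGF, had the largest difference of the list. It read 250.3 ± 9.6 on the array labelled HFR and 1037 ± 15.9 MBEI on the array labelled PPP, 4.14-fold higher, and its second probe set read 91.5 ± 4.2 and 296.7 ± 5.2 MBEI, 3.24-fold higher. Of the molecules that can act with SEMA3A, NRP1 and PLXNA4 were therefore higher on the array labelled PPP, PLXNA2 was higher on the array labelled HFR as SEMA3A itself was, and PLXNA1 had a log2 difference of 0.06. NRP2, the other neuropilin, read 457.7 ± 13.2 and 332.6 ± 15.9 MBEI, a log2 difference of 0.46.

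The other partners at 2-fold were cytoplasmic. VAV3, a guanine nucleotide exchange factor that acts downstream of Eph receptors, read 1384 ± 12.6 on the array labelled HFR and 416.7 ± 26.8 MBEI on the array labelled PPP, 3.32-fold higher, and 3.33-fold with its other passing probe set. DOCK1, a Rac exchange factor used by netrin receptors, read 88.9 ± 7.4 and 215.7 ± 9.5 MBEI, 2.43-fold higher on the array labelled PPP, with its other 4 probe sets under the filter. FYN, a Src family kinase of several guidance receptors, read 368.4 ± 16.9 and 739.3 ± 16.1 MBEI, 2.01-fold higher on the array labelled PPP, and its second probe set had a log2 difference of -1.21.

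Below 2-fold, the list went both ways. The actin-severing cofilin CFL2 had a log2 difference of -0.95, but 0.02 with its other probe set. SRGAP2, a GTPase activator named for Slit and Robo, had -0.88, and CRMP1, a cytoplasmic mediator of the semaphorin response, had -0.84, with -0.24 for its other probe set. PTK2, the focal adhesion kinase, had 0.85, with all 3 probe sets between 0.73 and 0.88. Of the small GTPases on which these pathways converge, CDC42 had a log2 difference of 0.18, and the 3 probe sets of RHOA had 0.12, -0.02 and -0.18. The probe sets of RAC1 disagreed, with 0.13 for the brighter and -0.89 for the other, which read 193.5 ± 7 on the array labelled HFR and 357.9 ± 7.3 MBEI on the array labelled PPP.

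**Figure D5:**
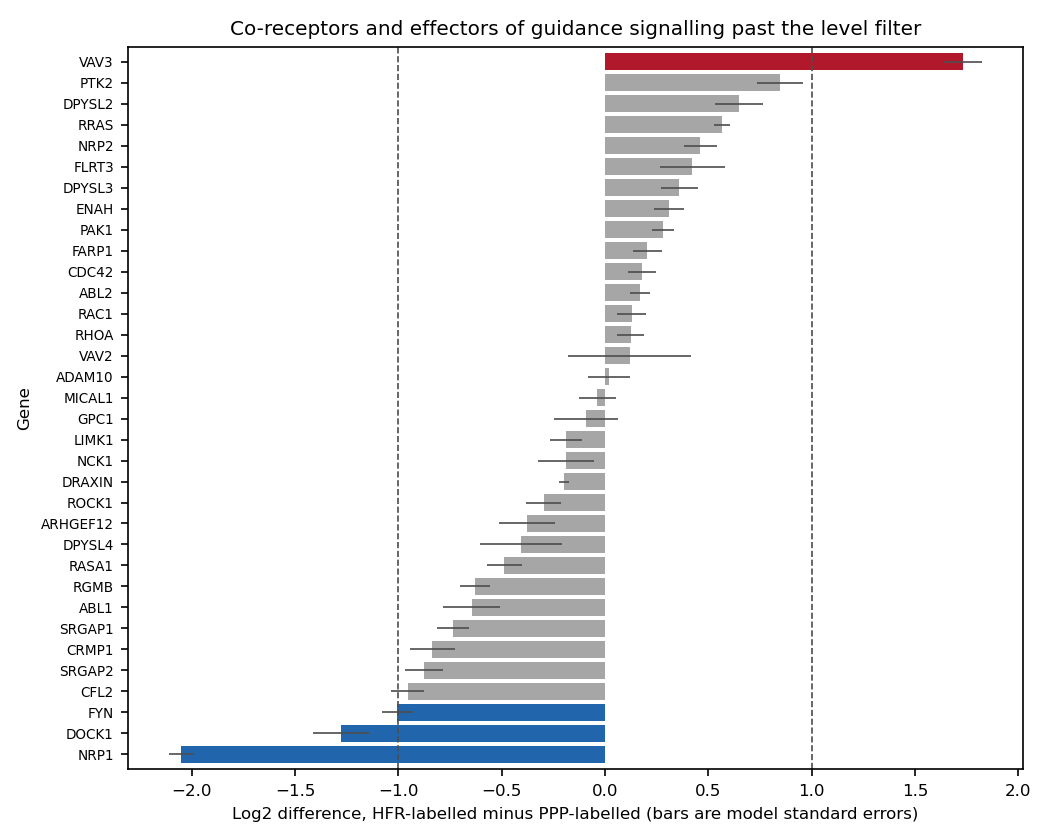
Log2 difference (HFR minus PPP, as labelled) with its model standard error for the 34 co-receptors, further ligands and effectors past the level filter, with dashed lines at 2-fold. VAV3 is the bar beyond the line on the HFR side, and NRP1, DOCK1 and FYN are those beyond it on the PPP side.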

How the data were processed

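The authors deposited MBEI intensities, with calls and standard errors per the file headers. Per the series' design text, arrays were normalized with an invariant set and a model was fitted to perfect match probes of 6 arrays, 4 of them of another study, whose 12 columns were not used. Per the labels' protocols, 45 ng of total RNA was amplified in 2 cycles. The submitters' processing notes name GCOS 1.3. The files name no genome build, so no coordinates are given.

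Here 153 control and reporter probe sets were left out. Symbols came from the platform annotation, and 53 of 54 member gene IDs were found in the RefSeq table of assembly GRCg7b, with 0 symbols changed. The log2 difference is HFR minus PPP, with errors propagated from both arrays. A fold is written "at least" if the dim side lacked a present call; its divisor was the dim value, or that array's lowest present value (6.5 MBEI on HFR, 4.8 on PPP) if larger. Members, lists and the rule for named genes (all members, with values for those at 2-fold, the brightest passing member of each class and up to 3 more by size of difference, and up to 8 partners) were chosen with earlier results of these data known. Python 3.11.15, pandas 2.3.3 and statsmodels 0.14.6 were used. The alternatives, 18 in all, covered scaling, filters, probe set choice, thresholds and the value table, which held the same values.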

Additional observations from a re-analysis of the deposited data

How the results depend on the processing

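Over 18 alternatives, 75 recomputed counts and medians over all guidance genes or probe sets stayed near the main value, and 11 moved. Single genes and single classes are not in this tally. Near meant within 1.5 times for a count and within 0.11 log2 units for a median. That margin is the median model standard error of single guidance genes' log2 differences, not an error of the median. The value table, the platform symbols and the run without bounds could not move any result. Their values and member symbols were the same, and 0 member values had been raised to a floor. The 75 include these alternatives. They also include the median under other fold thresholds and under a demand for 2 standard errors, neither of which could change it. The tally therefore does not measure how stable the results are. No paired analysis was possible because each tissue had 1 array. Setting the poly-A spike-ins equal moved the median of all passing genes to 1.47 from -0.05 (the 36 spike-in probe sets had a median log2 difference of -1.49), so that 23 guidance genes and 33 probe sets were 2-fold higher on the array labelled HFR and 0 of each on the array labelled PPP. The median over guidance genes was then 1.70 in place of 0.12, and EPHA7 and PLXNA4 had log2 differences of -0.66 and -0.42, still below 0. At 1.5-fold, 8 genes and 9 probe sets were higher on the array labelled PPP. At 4-fold, EPHA5 was the 1 gene and 1 probe set on the array labelled HFR, and EPHA7 the 1 of each on the array labelled PPP. SEMA6D went under 2-fold with a pseudocount of 22.3 MBEI (0.95), with the median over probe sets (0.79) and when probe sets with suffixes s, x and a were dropped (0.55). SEMA3A had 0.98 with the pseudocount and PLXNA2 0.92 with the median over probe sets. SEMA3D, by the probe set that stands for it, passed 2-fold with quantile normalization (-1.05) and with a loess trend subtracted (-1.09). EPHA1 could not be counted without probe sets of suffix a, nor EPHA5 under the stricter level filter.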
